A study of Pimephales promelas with 10 samples.

Results

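The transcripts described here are those whose signal differed most from tank to tank among unexposed fathead minnow testes. They are the 200 of 49849 gene probes with the largest standard deviation over the 5 control arrays, taken among the 15484 probes that met 3 conditions. A probe had to be well above background on all 10 arrays (19331 probes), to have a mean control level between -2 and 3 (15553 of these), and to leave no gap of 3 or more between neighbouring values in its 10 sorted levels. A level is the log2 of the processed spot intensity minus that of the 75th percentile of the same array, so 0 marks the signal that 75% of the spots do not exceed, and a difference of 1 is a 2-fold difference. The control values chose the members, and their spread between control tanks is therefore a description and not a finding.

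The study exposed adult male fathead minnows (Pimephales promelas), a small fish used in toxicology, to IMX-101 for 21 days. IMX-101 is an explosive made to resist accidental detonation, a mixture of dinitroanisole (DNAN), nitrotriazolone (NTO) and nitroguanidine (NQ). The exposed group is 5 tanks at 12.6 mg/L IMX-101 and the control group is 5 tanks at 0 mg/L, all with 2 adult males in 6.0 L of water at 23 °C, and each array carries the whole-testis RNA of 1 tank. The stated concentration uses the nominal value for DNAN, of which little was measured in the water. The RNA of both fish of a tank was pooled where both extracts passed, which the labels give for 24 of the 31 replicates of the whole study. The labels do not say which of the 10 arrays carry 1 fish and which a pool, so the spread below is between tanks of 1 or 2 fish.

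A fish testis holds germ cells that mature in clusters, called cysts, from spermatogonia through spermatocytes and spermatids to sperm. Sertoli cells enclose and nourish each cyst, and Leydig cells between the lobules make androgens. A whole-testis extract mixes all of these with blood and connective tissue, and in such an extract a change in the number of cells of a type and a change in RNA per cell cannot be told apart. No probe name was found in the RefSeq table of genes, so the members are given by probe name and no cell type, pathway or function is assigned. The names have 3 forms among the members: 89 begin with SINGLET and 41 with CONTIG, the usual words for an unassembled and an assembled sequence read, and 70 begin with UF_Ppr_AF. The shares (44.5%, 20.5% and 35.0%) are close to those among the 15484 probes (40.0%, 22.0% and 37.4%). The labelled tissue could not be checked against markers for the same reason.

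On 9 arrays, 81.44% to 86.51% of spots for genes stood well above background, against 40.32% on the array of exposed replicate 5. The lowest intensity of any gene spot on that array was 38.8, against 2.26 to 3.47 on the other 9. Its lowest spot level was -4.28, against -8.47 to -7.11. The lowest member level on that array was -1.99, against -5.23 to -3.91 on the other exposed arrays and -5.23 to -3.75 on the control arrays. Exposed SDs, profiles and log2 changes all include this array. Without it the median exposed SD of the members was 1.49 (1.49 with it), and their median log2 change was 0.65 (0.67 with it). The number of members higher at an unadjusted limma p under 0.05 moved from 7 to 35. The members themselves and their profiles still rest on this array. How far its higher floor shaped these was not tested. Because a member had to be well above background on every array, transcripts too dim on exposed replicate 5 could not enter. Exposed replicate 1 and control replicates 1, 2 and 3 lay on slide 1, exposed replicates 2 and 3 and control replicates 4 and 5 on slide 2, and exposed replicates 4 and 5 on slide 3.

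Among the members, the control SD ran from 1.46 to 3.37 log2 units with a median of 1.82, while the median of all 15484 probes was 0.264. The difference between the highest and the lowest control tank was 8.08-fold in the member with the narrowest range and 497-fold in that with the widest, with a median of 22.9-fold. The threshold cut a continuous range. The last members inside it were CONTIG2189, UF_Ppr_AF_114722 and UF_Ppr_AF_110159, with control SDs of 1.470, 1.467 and 1.464. The first probes outside were UF_Ppr_AF_117632, SINGLET_47261 and SINGLET_47723, at 1.464, 1.464 and 1.463. A further 68 probes had an SD at or above that of the last member but a mean level outside the limits, and 32 had such an SD but a gap too wide for the rule.

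The spread was measured within arrays as well for the 47 members that were printed at 2 places on each array. The SD between the spots of a member on a control array had a median of 0.062 log2 units over these members (0.004 to 0.172). The SD between control arrays of the same members had a median of 1.84 and was at least 9.7 times that between spots in every one of them, with a median ratio of 32.2. UF_Ppr_AF_109167 had an SD of 0.053 between spots and 3.30 between control arrays, UF_Ppr_AF_108171 of 0.037 and 2.77, and UF_Ppr_AF_101877 of 0.057 and 2.73. The rule chose the members for a large SD between control arrays, so these ratios are a description. Repeat spots also share the labelled RNA, hybridisation and scan of their array. Each tank had 1 array, so the spread between arrays of the same RNA was not measured. Spots of the probes that passed the filters had a median SD of 0.051. The largest SD between spots of a member on any of the 10 arrays was 0.73. The 247 member spots were spread over the array, with 21.9%, 25.5%, 29.1% and 23.5% in 4 bands of rows from one edge to the other, against 24.9%, 25.7%, 25.2% and 24.1% of the spots of the 15484 probes.

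**Figure D1:**
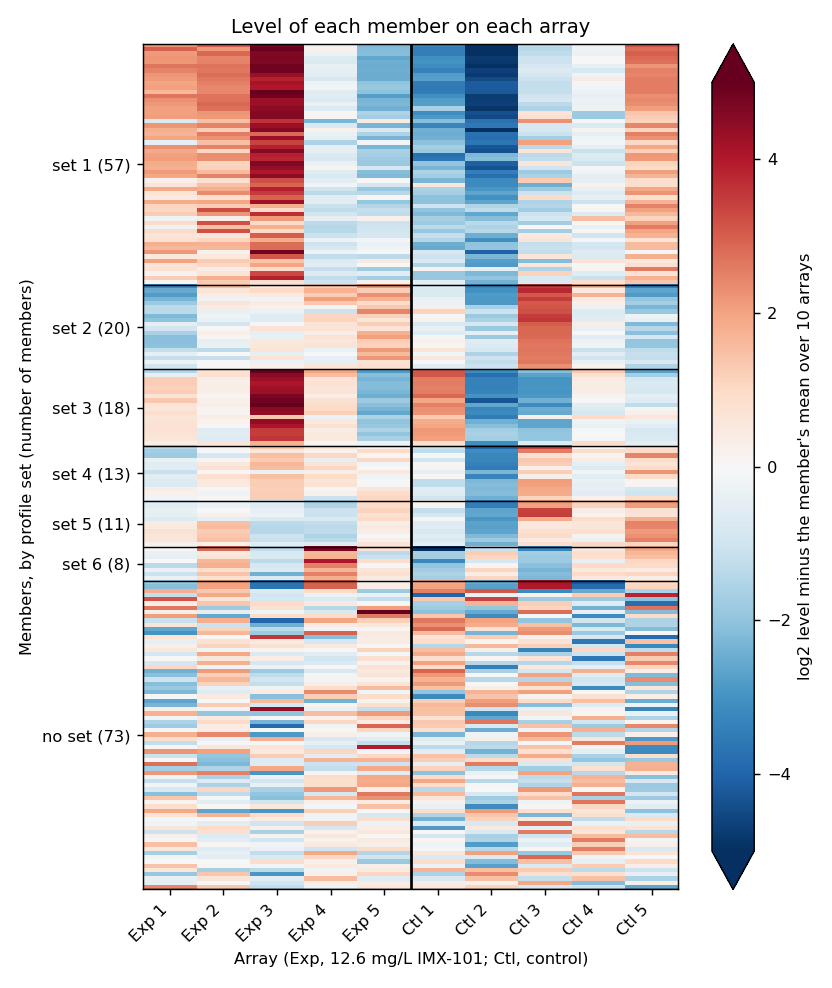
Log2 level of each of the 200 members (rows) on each array (columns, 5 exposed arrays left of 5 control arrays), with the mean of the member over the 10 arrays taken off. Rows are ordered by profile set and, within a set, by control SD. Set 1, with 57 members, is high on exposed replicate 3 and low on control replicate 2, and 73 members belong to no set.

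The members did not vary independently of each other. When they were grouped by the correlation of their levels over the 10 arrays (average linkage, joined down to a mean correlation of 0.7), 127 members fell into 6 profile sets of at least 8 and 73 did not. The sets had 57, 20, 18, 13, 11 and 8 members. This grouping used all values and was chosen after they had been seen, so the likeness within a set carries no test. Pairs of members had a median correlation of 0.887 in set 1, 0.859 in set 2, 0.965 in set 3, 0.785 in set 4, 0.825 in set 5 and 0.853 in set 6, each over 10 arrays that share scaling and slides. The lowest correlation of a pair was 0.234, 0.622, 0.608, 0.407, 0.548 and 0.668 in sets 1 to 6. Not every member therefore follows the median profile of its set closely.

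Profile set 1 was the largest and held 24 of the 50 members with the highest control SD. Its median level was 2.54, 3.28, 4.88, 0.23 and -0.52 on exposed replicates 1 to 5, and -0.98, -2.69, 0.45, 0.71 and 3.06 on control replicates 1 to 5. Exposed replicates 1, 2 and 3 and control replicate 5 were high. With each member set to its own mean, the median was negative on control replicates 1 to 4 (-2.11, -3.60, -1.06 and -0.30). It was also negative on exposed replicates 4 and 5 (-0.61 and -1.69), so the exposed and control tanks overlapped. On this scale the highest array (exposed replicate 3) lay 179.2-fold above the lowest (control replicate 2).

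SINGLET_45132, the member with the largest control SD, shows the width of these differences. Its processed intensity was 25639, 26279, 130680, 2532 and 971 on exposed replicates 1 to 5, and 463, 77, 2177, 4250 and 33822 on control replicates 1 to 5. In log2 levels this was 4.74, 5.61, 7.34, 2.40 and 0.37 in exposed and -0.76, -3.24, 1.28, 2.41 and 5.72 in control tanks. Control replicate 5 alone was as high as the upper exposed tanks, and exposed replicate 5 was lower than 3 of the 5 control tanks.

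SINGLET_239 followed the same course, with levels of 5.04, 4.25, 7.08, 2.29 and -0.11 in exposed and -1.38, -3.80, 0.65, 1.82 and 4.86 in control tanks. SINGLET_30790 had 4.68, 5.40, 7.17, 2.27 and 0.41 in exposed and -0.91, -2.68, 1.28, 2.24 and 5.54 in control tanks. In both, exposed replicate 3 was the highest of the 10 tanks and control replicate 2 the lowest. UF_Ppr_AF_102268, CONTIG5424, SINGLET_46243, CONTIG5378, UF_Ppr_AF_115034 and UF_Ppr_AF_101877 belonged to the same set, with exposed SDs of 2.84, 2.80, 2.88, 2.86, 3.00 and 2.74 and control SDs of 2.92, 2.89, 2.81, 2.77, 2.69 and 2.73. Their extremes were again exposed replicate 3, at 5.38 to 6.45, and control replicate 2, at -4.31 to -2.69.

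Profile set 3 had the closest likeness among its 18 members. Its median level was 3.52, 2.76, 6.94, 3.44 and 0.53 on exposed replicates 1 to 5, and 5.30, -0.59, 0.42, 3.09 and 2.09 on control replicates 1 to 5. Exposed replicate 3 was the highest tank here too, but control replicate 1, low in set 1, was the next, and control replicate 3 was low. CONTIG5512 had levels of 1.29, 3.54, 7.84, 4.72 and -0.08 in exposed and 5.92, -0.40, 0.62, 4.11 and 0.06 in control tanks, and its intensity was 184480 in exposed replicate 3 and 550 in control replicate 2. UF_Ppr_AF_108171 had 2.79, 3.97, 7.71, 4.73 and 1.08 in exposed and 6.29, -0.59, 0.52, 3.94 and 1.48 in control tanks. CONTIG5661, SINGLET_7712 and SINGLET_45673 had control SDs of 2.44, 2.45 and 2.43 and the same extremes.

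Profile set 2 was set apart by control replicate 3. Its 20 members had a median level of -2.28, -0.88, -0.76, -0.14 and 0.89 on exposed replicates 1 to 5, and -0.93, -2.30, 2.25, -1.12 and -2.62 on control replicates 1 to 5. The control tanks thus held both the highest and the lowest median of the set, and exposed replicate 1 was the lowest exposed tank. UF_Ppr_AF_108044 had -4.59, 0.14, -0.83, -0.12 and 0.82 in exposed and -1.98, -4.62, 2.13, 0.28 and -4.79 in control tanks. SINGLET_33390 and SINGLET_29505, the next 2 of the set by control SD, had 3.35 and 2.65 in control replicate 3 and no more than 1.85 in any other tank.

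In profile sets 4 and 5 a single control tank was low. The 13 members of set 4 had a median level of -0.18, 1.11, 1.89, 1.00 and 0.36 on exposed replicates 1 to 5, and 0.38, -3.16, 1.79, -0.15 and 1.20 on control replicates 1 to 5. The 11 members of set 5 had -0.48, 0.02, -1.0, -1.47 and 0.56 in exposed and -0.61, -3.24, 2.06, 0.43 and 2.08 in control tanks. Control replicate 2 was the lowest of the 10 tanks in both sets. SINGLET_1201, of set 4, had -4.55 there and 2.75 in control replicate 3, and UF_Ppr_AF_112767, of set 5, had -3.48 and 2.06. No member of either set was among the 200 probes with the widest exposed spread.

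Profile set 6 had 8 members, at 0.42, 1.55, 0.17, 2.62 and 1.15 in exposed and -1.09, 1.62, -0.86, 1.44 and 2.41 in control tanks (medians). SINGLET_151 led it, with levels of 2.59, 5.40, 1.33, 7.27 and 3.29 in exposed and -2.60, 1.49, -0.78, 3.13 and 4.48 in control tanks. Exposed replicate 4, on slide 3, was the highest tank of this set, and control replicates 1 and 3 were low.

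**Figure D2:**
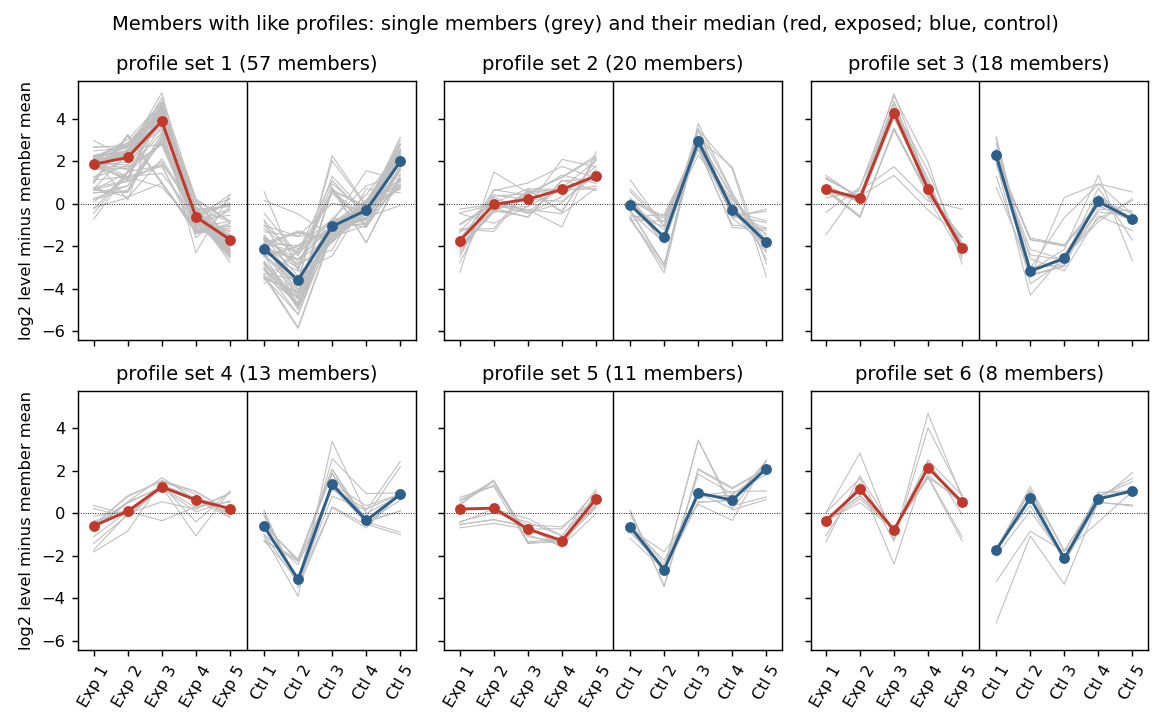
Log2 level minus the mean of each member over the 10 arrays, for the 6 profile sets, with single members as grey lines and their median as red (exposed) and blue (control) points. Lines join the values of a member and imply no order of the replicates. The median of set 1 runs from 3.89 on exposed replicate 3 to -3.60 on control replicate 2, and that of set 2 is highest, at 2.94, on control replicate 3.

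The 73 members in no set included some of the widest. SINGLET_48783 had levels of -2.69, 1.18, -4.52, 2.18 and -0.55 in exposed and 1.09, -3.35, 3.21, -5.04 and 0.15 in control tanks, a control SD of 3.36. UF_Ppr_AF_109167 had -2.68, 1.46, -4.23, 2.37 and -0.28 in exposed and 1.45, -3.28, 3.43, -4.43 and 0.50 in control tanks. The pair moved together, with lows in exposed replicates 1 and 3 and control replicates 2 and 4, in both groups and on slides 1 and 2. UF_Ppr_AF_107253 had 2.85, 2.37, 0.35, 2.02 and -0.80 in exposed and 3.54, 4.15, -2.14, -1.50 and -0.53 in control tanks. SINGLET_3391 had -2.07, 1.02, -1.83, -1.18 and -1.22 in exposed and -4.87, -1.22, -0.68, 0.38 and 2.96 in control tanks. Each of these spread over at least 6 log2 units among control tanks, and over at least 3 among exposed tanks.

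Each member was also placed by the control tank that lay farthest from the median of its 5 control levels. For 50 members (25%) this was control replicate 2 on the low side, for 39 (19.5%) control replicate 5 on the high side, for 38 (19.0%) control replicate 3 on the high side and for 17 (8.5%) control replicate 1 on the high side. Among the 15484 probes these shares were 8.96%, 7.83%, 8.29% and 8.39%. The other 6 kinds of pattern held 7 to 12 members each (3.5% to 6.0%), against 8.14% to 14.18% of the 15484 probes. The rule used these control values and many members have like profiles, so the counts are a description. Leading these 6 kinds were UF_Ppr_AF_107040 (control replicate 3 low, at -2.94), CONTIG4732 (control replicate 4 high, at 4.11) and UF_Ppr_AF_106049 (control replicate 5 low, at -4.56). The others were led by SINGLET_48783 (control replicate 4 low), SINGLET_151 (control replicate 1 low) and UF_Ppr_AF_107253 (control replicate 2 high).

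The exposed tanks, which the rule used only in its filters, showed how the control patterns carried over. Ordered by level, the control tanks ran 5, 4, 3, 1 and 2 from highest to lowest in 29 members (14.5%), against 136 of the 15484 probes (0.878%). Of these 29, 22 (75.9%) also shared the order 3, 2, 1, 4 and 5 of the exposed tanks, an order found in 185 of the 15484 probes (1.195%). Of the 15484 probes, 24 had both orders, the 22 members among them. Of the 29, 25 belonged to profile set 1. The next 2 commonest control orders were shared by 17 and 14 members, of which 5 (29.4%) and 3 (21.4%) had the exposed order commonest among them. The profiles were not particular to the members. Other probes well above background on all 10 arrays numbered 19131. Of these, 48 had a correlation of at least 0.9 with the median profile of set 1, as had 39 of its 57 members. Among the 48, 13 lay outside the level limits and 11 had too wide a gap. For sets 2 to 6 such other probes numbered 20, 11, 3, 6 and 57.

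Pairs of members with nearly the same control profile were compared on the exposed arrays in the same way. In 137 of 19900 pairs the levels, each set to the control mean of its member, differed by no more than 0.5 log2 units on any control array. In 56 of the 137 (40.9%) they also differed by no more than 0.5 on any exposed array, against 0.578% of all pairs of members. UF_Ppr_AF_112767 and SINGLET_5727 differed by at most 0.133 on the exposed and 0.041 on the control arrays, CONTIG2278 and UF_Ppr_AF_113592 by at most 0.076 and 0.159, and SINGLET_7712 and UF_Ppr_AF_114303 by at most 0.032 and 0.056. SINGLET_48783 and UF_Ppr_AF_109167, the pair given above, differed by at most 0.313 and 0.292. Not all pairs carried over: CONTIG4732 and SINGLET_28141 differed by up to 2.14 on the exposed arrays and by at most 0.448 on the control arrays. In all, 79 members had a partner within 0.5 on all 10 arrays. Whether such pairs read the same transcript was not tested, since no probe sequence was used, and the 200 members may stand for fewer transcripts.

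**Figure D3:**
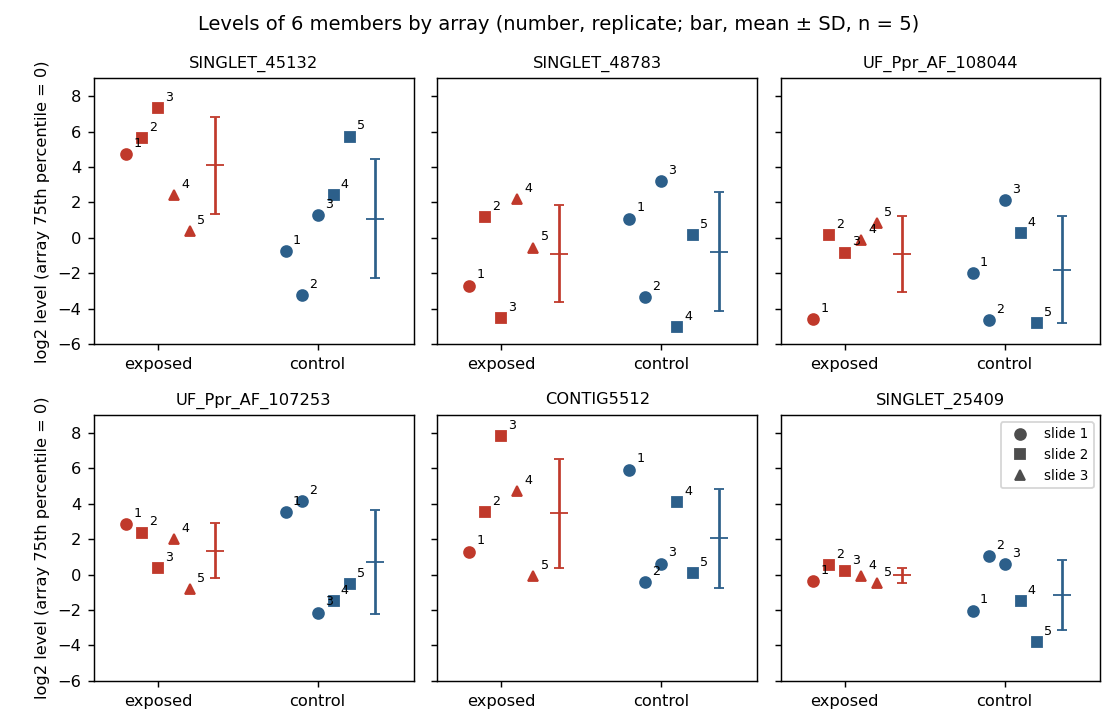
Log2 level of 6 members on each array, exposed left of control, with the replicate number beside each point, the slide as its shape, and the mean ± SD (n = 5) as a bar. The groups overlap in every panel, and SINGLET_25409 spans from -0.49 to 0.53 in exposed and from -3.81 to 1.04 in control tanks.

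The members were also variable between exposed tanks. The SD over the 5 exposed arrays, which the rule did not use, had a median of 1.49 log2 units over the 200 members (0.41 to 3.08), against 0.343 over the 15484 probes, a ratio of 4.34. No member had an exposed SD below that median, 167 lay above the 90th percentile of 0.809, and 94 (47.0%) were among the 200 probes with the largest exposed SD, where 200 of 15484 is 1.29%. The exposed spread was nevertheless larger than the control spread in only 60 members (30.0%), against 67.3% of the 15484 probes. The members were chosen for a large control SD, and the filters on detection and gaps used the exposed arrays, so neither share is a test.

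The exposed spread is given by profile set as a description only. The exposed levels helped to form the sets, and members of a set are not independent cases. Of the 94, 45 came from set 1 and 16 from set 3, 4 each from sets 2 and 6, and 25 from outside the sets. The median exposed SD was 2.30 in set 1, with a median control SD of 2.09, and 2.34 in set 3, with 2.21. It was 0.83 in set 4, with a control SD of 1.71, and 0.94 in set 5, with 1.89. CONTIG5512 and UF_Ppr_AF_115034 had the largest exposed SDs of all members, 3.08 and 3.00.

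At the other end, 33 members had an exposed SD below 0.809, 19 of them outside the sets. SINGLET_25409 had the smallest, with levels of -0.36, 0.53, 0.18, -0.11 and -0.49 in exposed and -2.04, 1.04, 0.58, -1.50 and -3.81 in control tanks (SD 0.41 and 1.98). UF_Ppr_AF_109141 had 0.14, 0.21, 0.60, 0.00 and 1.10 in exposed and -2.17, 1.34, 0.63, -1.07 and 1.15 in control tanks. In both, the exposed values lay inside the range of the control values. SINGLET_28141, UF_Ppr_AF_112374 and UF_Ppr_AF_113749, the next by exposed SD, had 0.47, 0.47 and 0.48 in exposed tanks and 1.51, 1.52 and 1.76 in control tanks.

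**Figure D4:**
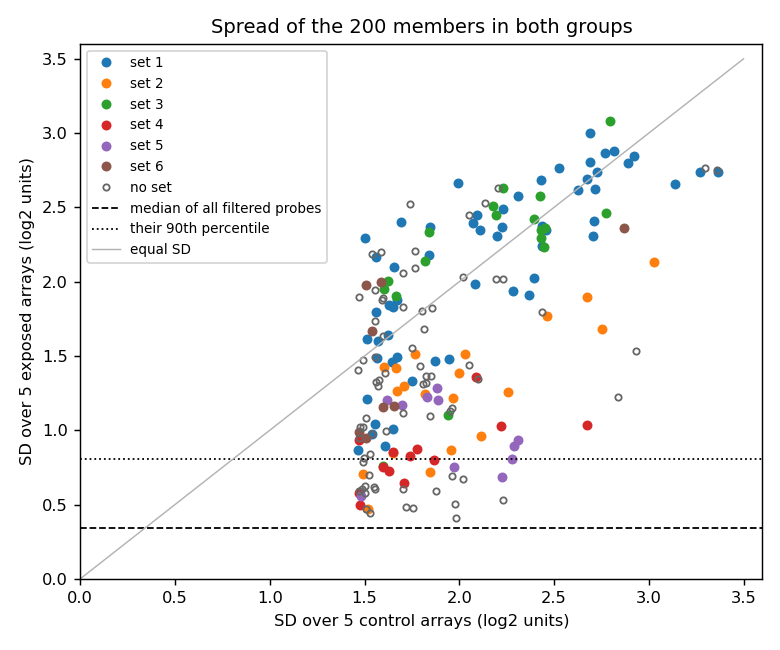
SD over the 5 exposed arrays (vertical) against SD over the 5 control arrays (horizontal), in log2 units, for the 200 members coloured by profile set. The dashed line is the median exposed SD of the 15484 probes that passed the filters (0.343) and the dotted line their 90th percentile (0.809). All members lie above the dashed line, and the largest exposed SDs are those of CONTIG5512 of set 3 (3.08) and UF_Ppr_AF_115034 of set 1 (3.00).

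Slide was compared with the tank spread, because control tanks lay on 2 slides. The 3 control tanks of slide 1 spanned a median of 3.5 log2 units in the members and 0.47 in the 15484 probes. The 2 exposed tanks of slide 2 differed by a median of 1.55 and 0.31, the 2 exposed tanks of slide 3 by 1.21 and 0.30, and the 2 control tanks of slide 2 by 1.74 and 0.26. A range over 3 tanks is wider than a difference of 2 at equal spread, so the span of slide 1 is not comparable with the others. The control values chose the members, so of these spans those between exposed tanks of a slide are the ones the choice of the largest SD did not use. The control levels of slide 1 and slide 2 did not overlap in 64 members (32.0%), against 21.6% of the 15484 probes, and 53 of these members were higher on slide 2. Of those 64, 39 belonged to profile set 1, all higher on slide 2, and in 38 of these 39 exposed replicates 2 and 3 of slide 2 also averaged above exposed replicate 1 of slide 1. Outside set 1 the controls did not overlap between slides in 25 of 143 members (17.5%), and the exposed difference had the same side in 13 of the 25 (52.0%). Among the 15484 probes the controls did not overlap in 3340, and the exposed difference had the same side in 1813 of these (54.3%). The median profile of set 1 peaks in exposed replicate 3 and its members have like profiles, so the counts of these 39 are not independent. With the slide means taken off the control values, the rule chose 155 of the 200 members again, and 37 of the 57 of set 1. Exposed replicate 1, on slide 1, was among the high tanks of that set (2.54). It was the only exposed tank of slide 1, and slide 3 held no control tank, so slide and tank could not be told apart.

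The exposed and control groups were compared with limma over 43084 tested probes. No member was called higher or lower at an adjusted p under 0.05, where 3 tested probes (0.00696%) were called higher and 0.0% lower, and 0.0% of the 15484 probes in either direction. A wide control spread enters the error of this test, so the members were less likely to be called than other probes by the way they were chosen. At an unadjusted p under 0.05, 7 members were higher and 0 lower, against 2.67% higher and 6.0% lower of all tested probes, and 1.49% and 5.63% of the 15484 probes. The count of 7 higher members moved with the fit, and is given with that of all 43084 tested probes in brackets (1149 here). Without exposed replicate 5 it was 35 (1077), and without control replicate 5 it was 38 (1175). It was 1 (2434) without exposed replicate 1 and 2 (776) without control replicate 2. Leaving out exposed replicate 2 gave 3 (966), and leaving out control replicate 1 also gave 3 (955). A fixed slide term gave 45 (1358). No member had groups that did not overlap, against 0.334% (higher) and 2.17% (lower) of all tested probes, and 0.207% and 2.42% of the 15484. A wide control spread also makes overlap of the groups more likely, so this too is a description.

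The direction of the estimates is given as a description, because the filters of the rule used the exposed arrays as well. A member had to be well above background on exposed replicate 5, where the lowest member level was -1.99. The lowest was -5.23 to -3.91 on the other exposed arrays and -5.23 to -3.75 on the control arrays. How far the filters shaped the direction was not tested. The log2 change was above 0 in 142 members (71.0%), against 47.1% of all tested probes and 39.9% of the 15484, and its median was 0.67, against -0.02 and -0.06. Profile set 1 had a median of 2.17 and 56 of 57 members above 0, whereas the 143 other members had a median of 0.30 and 86 (60.1%) above 0. By set, the medians were 0.17, 1.55, 0.67, -0.25 and 0.81 in sets 2 to 6 and 0.09 in the members of no set. Above 0 were 13 of 20, 18 of 18, 10 of 13, 0 of 11 and 7 of 8 members of these sets, and 38 of 73 of no set. Members of a set have like profiles, so these counts are not independent. Without control replicate 2, the low tank of set 1, the median over all members was 0.39. Without exposed replicate 5 it was 0.65, with 134 members above 0, though the filters had used that array. Within slide 1, where exposed replicate 1 was the only exposed tank, the median was 0.73. It was 0.97 within slide 2 and 0.58 with slide as a fixed block. No change in any of these sets passed the test. In the fit reported above, without a slide term, the smallest limma adjusted p of any member was 0.45.

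The higher members with the smallest p-values were led by SINGLET_868, with levels of 2.25, 2.08, 0.55, 1.11 and -0.08 in exposed and -0.54, -2.33, 0.89, -0.41 and -3.14 in control tanks. It averaged 1.18 ± 0.99 in exposed and -1.11 ± 1.61 in control tanks (SD, n = 5 each), and the estimated difference was 2.29 log2 units (SE 0.75, 0.62 to 3.96 at 95%, adjusted p = 0.45 by limma). The groups overlapped in control replicate 3. CONTIG5435 had a difference of 2.71 (SE 1.06, 0.37 to 5.05 at 95%, adjusted p = 0.515 by limma), and its exposed levels were 1.70, -0.27, 4.37, -0.75 and -0.52, against -1.26, -4.50, -1.62, -1.09 and -0.53 in control tanks. SINGLET_7634, UF_Ppr_AF_100031 and UF_Ppr_AF_102951, which like CONTIG5435 belong to profile set 1, had log2 changes of 1.79, 2.67 and 2.00, with limma adjusted p of 0.539, 0.548 and 0.551. Exposed replicate 1 was the only exposed tank of slide 1. Within that slide the differences of these 3 were 3.90, 4.35 and 3.49 and that of CONTIG5435 was 4.17. Within slide 2 they were 0.74, 2.28 and 1.92, and that of CONTIG5435 was 2.86. With an array left out, SINGLET_868 ran from 1.78 to 2.79 and CONTIG5435 from 1.84 to 3.12. The other 3 ran from 1.32 to 2.19, 1.90 to 3.24 and 1.56 to 2.64.

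Among members with a negative estimate, CONTIG4732 had the smallest p. Its levels were 0.30, 1.47, 1.57, 1.12 and 0.36 in exposed and 1.19, 0.12, 1.48, 4.11 and 3.68 in control tanks, which gave a difference of -1.16 (SE 0.72, -2.75 to 0.44 at 95%, adjusted p = 0.674 by limma). Only control replicates 4 and 5, both on slide 2, lay above all exposed tanks. The difference was -0.66 without control replicate 4, -0.76 without control replicate 5, -0.64 within slide 1 and -2.37 within slide 2. Slide 1 held exposed replicate 1 as its only exposed tank. SINGLET_46112, SINGLET_43789, SINGLET_27602 and CONTIG6042 had log2 changes of -1.41, -1.12, -1.31 and -0.87, with limma adjusted p of 0.708 to 0.755. SINGLET_46112 was at -2.25 without exposed replicate 5 and -0.92 without control replicate 4, and SINGLET_43789 at -1.74 without exposed replicate 4 or control replicate 3. SINGLET_27602 was at -0.81 without exposed replicate 1 and -2.09 without control replicate 5, and at -4.07 within slide 1 but 1.28 within slide 2. CONTIG6042 was at -0.56 without exposed replicate 2, -0.55 without control replicate 1 and -1.31 without control replicate 4. Single tanks and slides thus moved these estimates by over 1.5 times. None of these 5 belonged to a profile set.

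These data bound the changes of the members only loosely. The rule chose the members for a wide control spread, which enters the SE, so this is a description and not a finding. The SE of the estimates had a median of 0.954 over the members and of 0.281 over all tested probes, and the 95% interval reached a median of 2.12 to either side of the estimate. It lay within a 2-fold change in either direction for 0 of 200 members, against 58.4% of all tested probes and 77.7% of the 15484. It lay within a 4-fold change for 24 members (12%), against 91.3% and 96.8%. For SINGLET_45132 the interval ran from -0.78 to 6.80 around a log2 change of 3.01, and for SINGLET_48783 from -3.89 to 3.69 around -0.10. A 4-fold change in most of these transcripts could therefore not be told from the spread between tanks.

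**Figure D5:**
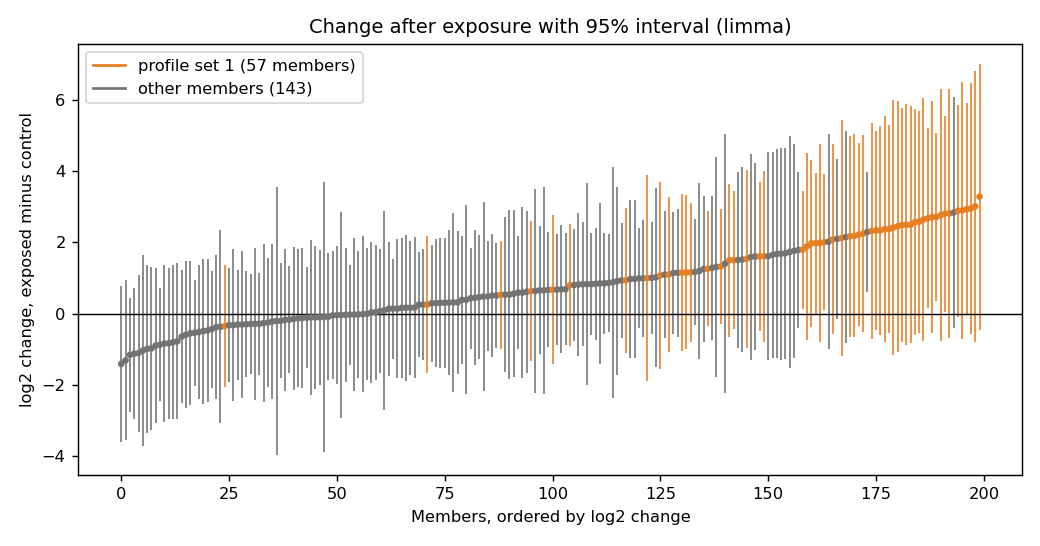
Log2 change, exposed minus control, with its 95% limma interval for each of the 200 members in order of the estimate, with profile set 1 in orange. The estimates run from -1.41 to 3.28, and set 1 holds most of the largest. Only 7 intervals do not include 0, and none passes the adjustment over 43084 probes.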

How the data were processed

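Per the labels' protocols, 80 ng of RNA per tank, with an RNA integrity number above 8.0, was labelled with Cy3 and hybridised to 1-colour arrays. The submitters' processing notes name Agilent Feature Extraction 10.7.3.1. The intensity taken from the deposited scanner files is their processed signal, linear and background-subtracted per the file headers. The authors also deposited a table of log2 values, whose scaling is not stated. Each of its columns followed the scanner levels centred on the median of the probe (correlation across probes of at least 0.9992), so it holds no absolute levels. The medians of its 5 exposed columns, in replicate order, were -0.152, 0.00191, -0.138, 0.0772 and 0.178, and those of its 5 control columns 0.0366, 0.0373, -0.022, 0.022 and -0.024. The scanner flags for outlier spots (131 to 281 per array), saturation (no gene spot) and signal well above background were used as deposited.

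Members were chosen on all gene spots. Levels and tests left out outlier spots, of which the members had none, and averaged spots of a probe. Testing required a signal well above background on 3 or more arrays of a group. The fit was limma 3.58.1 (R 4.3.3; lmFit, eBayes, group as its only term, two-sided), tested on simulated data, with p-values adjusted by Benjamini and Hochberg across the tested probes. The tanks are the replicates. Python 3.11.15, numpy 2.4.6, pandas 2.3.3, scipy 1.17.1 and matplotlib 3.10.9 were used otherwise. The number of arrays limits the precision.

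The members, the lists and the tests were chosen with earlier results of these data known. Members were named by rule: the 12 largest control SDs, the first of each control pattern, the 5 smallest p-values in each direction, 3 on each side of the threshold, the 5 largest and 5 smallest exposed SDs, and 5 members printed more than once. Leading members of profile sets and the pairs named were chosen after their values were seen. Marker lists of testis and other cell types, the interferon response and the clock could not be used, since 0 of 49849 probe names occurred in the RefSeq table.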

Additional observations from a re-analysis of the deposited data

Results flagged for a closer look

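Among 90 groups of 5 values checked (array signal, profile sets and the members named), 5 held a value far from the other 4. Chance sets apart about 1 in 20 among unselected values, and the count is near that share. Most of the groups are of members chosen for their values, for which this rate need not hold. The values below are therefore a description. Exposed replicate 5 had 40.32% of its spots for genes well above background, against 81.95% to 85.09% on the remaining exposed arrays. SINGLET_3391 lay at 1.02 in exposed replicate 2, against -2.07 to -1.18 in the other exposed tanks. SINGLET_46112 lay at 1.12 in exposed replicate 5, against -3.62 to -2.36 in the other exposed tanks. CONTIG5435 lay at -4.50 in control replicate 2, against -1.62 to -0.53 in the other control tanks. SINGLET_27602 lay at -4.03 in control replicate 5, against -0.59 to 0.54 in the other control tanks. Over all 200 members, 9 had such a value among the exposed and 9 among the control tanks, which is also near 1 in 20.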

How the results depend on the processing

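Normexp on the median signals replaced the planned run on mean signals and was chosen after seeing the data, as were the runs on the median change of the members, on their control SDs and on their rank orders. In each of 23 other fits limma called 0 members. The number of members at an unadjusted p under 0.05 was not stable, and is given with that of all 43084 tested probes in brackets. It was 45 higher and 3 lower with slide as a fixed block (1358 and 2893), and 9 and 8 within slide 2 (1278 and 1149). Without exposed replicate 5 it was 35 and 1 (1077 and 2927), and without control replicate 5, 38 and 1 (1175 and 2415). Without exposed replicate 1 it was 1 and 0 (2434 and 2849), and without control replicate 2, 2 and 4 (776 and 1748). It was 3 and 0 without exposed replicate 2 (966 and 2512) or control replicate 1 (955 and 1970). Over all tested probes limma called 0 with quantile normalization (4032 at an unadjusted p under 0.05), normexp (2686), only probes that stood well above background on each of the 10 arrays (1632), within slide 1 (6221) or slide 2 (2427) and with the replicate block (3419). It called 1 with median centring, the trended and robust variance or slide as a fixed block, and 0 to 2 with an array left out. The cause was not tested. Replicate numbers did not pair the tanks (correlations of -0.29 to 0.08), and the block changed no call of a member. The median log2 change of the members was 0.30 outside profile set 1 and 0.39 to 0.87 with an array left out. Of 230 refits of the 10 members named for small p-values, 229 kept the sign; SINGLET_27602 was 1.28 within slide 2. The ratio of median exposed SDs stayed between 3.56 and 4.99. The rule applied again kept 148 members without the level limits, 169 without the gap limit, 155 after taking off slide means, 158 with normexp and 158 to 174 with a control array left out.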
